A study of Mus musculus with 6 samples.

Results

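The genes described here are 48 lysosomal genes of the mouse: the cathepsins, other hydrolases of the lysosome, its membrane proteins, the subunits of the V-ATPase proton pump and the transcription factors TFEB, TFE3 and MITF. They were taken by symbol from a given list, and all 48 were found among the 54532 genes of the deposited tables and among the 10843 genes that reached the level for testing, a mean of at least 1 FPKM (fragments assigned to the gene, scaled to exon length and library depth). RNA was sequenced from immortalised bone marrow-derived macrophages (iBMDM), a line that keeps dividing because retroviruses delivered the oncogenes v-raf and v-myc to cultured marrow macrophages. Cells labelled 4-1BBL KO, from mice deficient in the TNF superfamily member that Tnfsf9 encodes, were set against cells labelled WT, with 3 libraries each. Every library, WT included, came from oncogene-carrying cells kept for 24 hours with IL-4 at 10 ng/ml. No IL-4-free cells were analysed here, so each value is a level under IL-4 and says nothing of the change IL-4 made. Whether replicates were separate cultures, animals or immortalised lines is not stated. The p-values thus rest on the spread among 3 libraries a group, and that spread may be technical. KO-labelled and WT cells came from different mice, so a difference by genotype and a difference between immortalised lines cannot be told apart.

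The lysosome is the compartment in which macrophages digest what they engulf. Its hydrolases work at acid pH, and the acid is supplied by the V-ATPase, whose membrane sector V0 carries protons and whose cytosolic sector V1 splits ATP. Most hydrolases are tagged with mannose 6-phosphate and carried from the Golgi to the lysosome. TFEB, TFE3 and MITF are related transcription factors that enter the nucleus when the kinase mTORC1 is inactive and bind CLEAR elements, short sites built around an E-box, in front of many lysosomal genes. In macrophages these factors have been linked to autophagy, lipid breakdown and inflammatory gene expression.

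The recovered depth was 19.1 to 26.4 M (mega) assigned fragments in KO-labelled libraries and 20.7 to 22.3 M in WT libraries. Tnfsf9 transcript was present in both groups, at 10.7, 10.7 and 11.4 FPKM in KO-labelled libraries, against 14.6, 10.4 and 12.05 FPKM in WT libraries, with overlap (exact two-sided permutation p = 0.4, where 0.1 is the smallest p that 3 against 3 libraries allow). It is not stated what was deleted from the gene, so transcript from the remainder could still be counted, and the group is called KO-labelled. All 12 macrophage markers reached 1 FPKM in at least 1 library, with a summed level of 1472 to 1524 FPKM in KO-labelled and 2373 to 2421 FPKM in WT libraries. Among them Fcgr3 (74.5, 75.3 and 80.3 FPKM in KO-labelled libraries, against 0.189, 0.805 and 0.233 FPKM in WT libraries) and Mertk (4.17, 4.42 and 4.13 FPKM in KO-labelled libraries, against 0.0216, 0 and 0 FPKM in WT libraries) were near 0 in WT, as was Aif1 (26.8, 25.4 and 24.6 FPKM in KO-labelled libraries, against 0.519, 0.0944 and 0.264 FPKM in WT libraries). Of the 12 markers 5 were higher in KO-labelled cells, namely these 3, Adgre1 and Fcgr1, and 5 were lower, namely Cd14 (6.39-fold), Mpeg1 (2.78-fold), Lyz2 (2.50-fold), Csf1r (1.73-fold) and Cd68 (1.55-fold). Markers of T and B cells, mast cells and dendritic cells stayed below 1 FPKM in every library, and those of neutrophils summed to at most 1.26 FPKM. Markers of fibroblasts and endothelium summed to 1.65 to 2.18 FPKM in KO-labelled and 1.80 to 2.02 FPKM in WT libraries. In bulk RNA, a different number of expressing cells and a different amount of RNA per cell cannot be told apart.

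The 48 listed lysosomal genes, chosen with earlier results of these data known, were more often higher than lower in KO-labelled cells. By group of function, 15 of 22 genes of cathepsins, hydrolases and lumen proteins were higher and 3 lower, and 5 of 16 pump genes were higher, Atp6v0c with its doubtful value among them, and 6 lower; the difference between the groups was not tested. Of the 48 genes, 25 were higher (52.1%), 11 were lower (22.9%) and 12 did not pass, where passing means a Benjamini-Hochberg adjusted p below 0.05 in limma over all tested genes. Across all 10843 tested genes, 60.8% passed, 30.6% higher and 30.2% lower, so a call by itself was common. Of 148 tested genes on the other lysosome, autophagy and sensing lists, 36.5% were higher and 29.1% lower. After rescaling to TPM, 36.6% of all tested genes were higher and 24.4% lower, and 27 of the 48 lysosomal genes were higher and 8 lower. The lysosomal genes were also expressed at a higher level than most, with a median of 46.8 FPKM against 8.77 FPKM for all tested genes. Among all tested genes averaging 10 FPKM or more, 65.5% passed, 32.1% higher and 33.3% lower. At that level 22 of 42 lysosomal genes were higher and 10 were lower. The median log2 difference, KO minus WT on the log2(FPKM + 1) scale, was 0.21 over the 48 genes and 0.0055 over all tested genes.

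Most differences were modest. The 25 genes that were higher differed by a median of 1.40-fold (ratio of mean FPKM), and 13 of them by less than 1.5-fold. The 11 that were lower differed by 1.14-fold to 2.19-fold. For 36 of the 48 genes, those that passed, no KO-labelled value fell within the WT range or the reverse, against 67.4% of all tested genes. The largest ratios were those of Ctsh and Atp6v0c, and the value of Atp6v0c depends on how the fragments of a near-identical copy were assigned, as described with the pump.

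**Figure D1:**
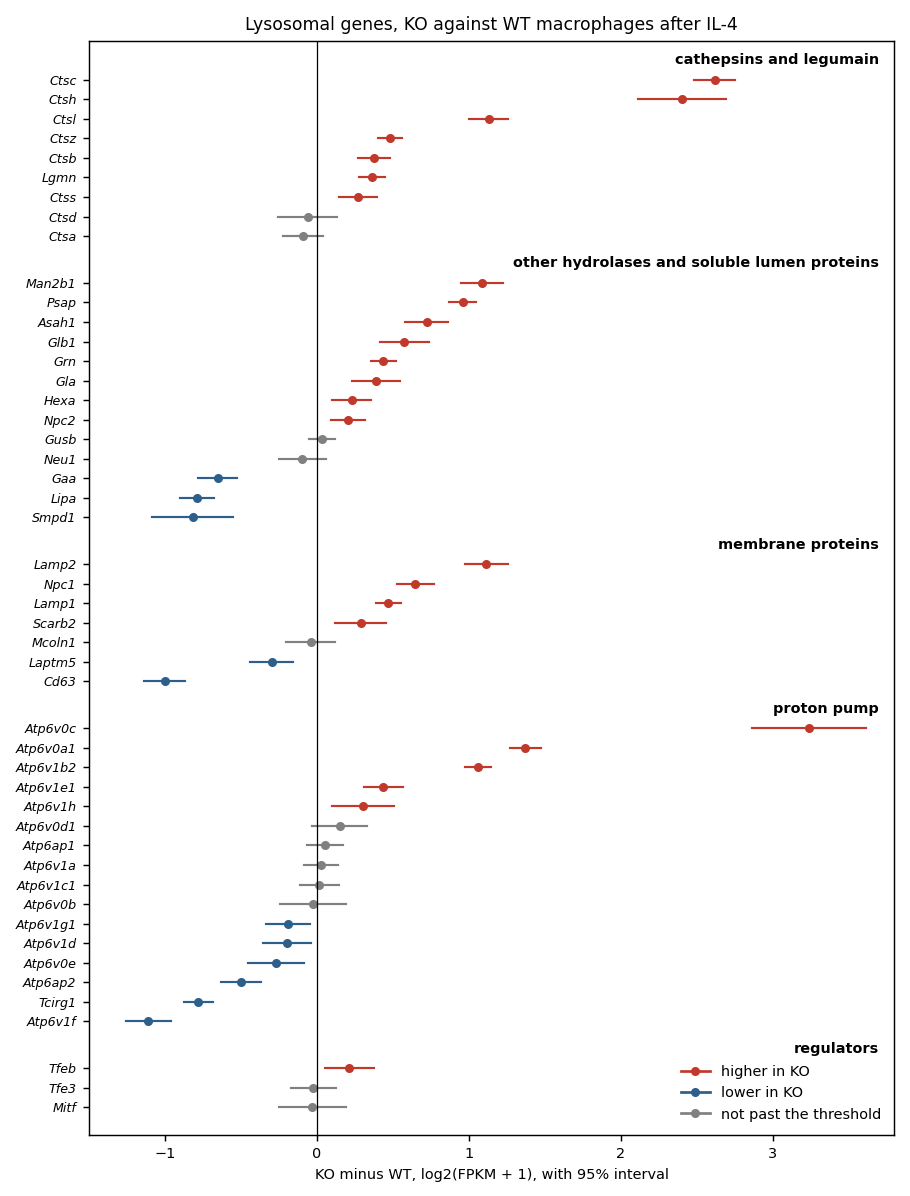
Difference in log2(FPKM + 1) between KO-labelled and WT libraries (KO minus WT, n = 3 each) for the 48 lysosomal genes, by group of function, with the 95% interval from limma. Red marks genes higher in KO-labelled cells, blue genes lower and grey genes that did not pass. Of the 9 cathepsin genes 7 lie to the right of 0, while the 16 pump genes fall on both sides.

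In total the 48 genes summed to 4431 ± 37.03 FPKM in KO-labelled libraries and 3701 ± 16.7 FPKM in WT libraries (SD, n = 3 each), a ratio of 1.2. That was 1.53% of all FPKM in KO-labelled and 1.19% in WT libraries. By group of function the ratio of sums was 1.26 for cathepsins with legumain, 1.29 for the other hydrolases and soluble proteins, 1.18 for membrane proteins, 1.02 for the pump and 1.02 for the transcription factors. Without Atp6v0c, whose value is doubtful, the ratio was 0.982 for the pump and 1.19 for all lysosomal genes. Sums follow the most abundant members and were not tested.

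Cathepsins were the group with the clearest direction. Of 9 genes, 7 were higher in KO-labelled cells, 2 did not pass and none was lower in limma (0 at an unadjusted p below 0.05, and 0 with voom). Over all tested genes 30.6% were higher and 30.2% lower. Ctsc encodes cathepsin C, the dipeptidyl peptidase that activates serine proteases of immune cell granules. Ctsc (chr7:88278085-88310888 in mm10) had 33.1, 35.2 and 37.2 FPKM in KO-labelled libraries, against 4.98, 4.88 and 4.79 FPKM in WT libraries. Every KO-labelled library lay far above every WT library, with a ratio of 7.20 and a log2 difference of 2.62 ± 0.057 (SE, limma adjusted p = 8.14e-08). Cathepsin H is an aminopeptidase, and its gene Ctsh was barely expressed in WT cells. Ctsh had 7.84, 6.52 and 7.31 FPKM in KO-labelled libraries, against 0.676, 0.321 and 0.679 FPKM in WT libraries, from 2138 fragments over the KO-labelled and 163 over the WT libraries. The groups did not overlap and the ratio was 12.9 (log2 difference 2.41 ± 0.12, limma adjusted p = 4.41e-06). The endopeptidase gene Ctsl had 70.0, 70.4 and 75.7 FPKM in KO-labelled libraries, against 30.7, 33.0 and 33.4 FPKM in WT libraries, 2.22-fold higher, again with no overlap (limma adjusted p = 3.27e-06).

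The cathepsins with the highest levels differed less. Ctsz, a carboxypeptidase gene with the highest mean of all 48 genes, had 438, 434 and 437 FPKM in KO-labelled libraries, against 312, 314 and 312 FPKM in WT libraries, a ratio of 1.40 (log2 difference 0.48 ± 0.033, limma adjusted p = 1.88e-05). Ctsb, a cysteine protease gene, had 346, 349 and 376 FPKM in KO-labelled libraries, against 278, 271 and 277 FPKM in WT libraries, 1.30-fold higher (limma adjusted p = 0.000334). Both sets of KO-labelled values lay above all WT values. Legumain, which cleaves after asparagine and processes other cathepsins, was 1.28-fold higher, with Lgmn at 247 ± 5.28 FPKM in KO-labelled and 192 ± 1.61 FPKM in WT libraries (SD, n = 3 each, limma adjusted p = 0.000129). Ctss, whose enzyme trims the invariant chain of MHC class II, was 1.21-fold higher, at 286 ± 16.0 FPKM in KO-labelled and 237 ± 7.72 FPKM in WT libraries (limma adjusted p = 0.00355).

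The exceptions were Ctsd and Ctsa. Ctsd, the main aspartic protease of the lysosome, had 205, 200.1 and 166 FPKM in KO-labelled libraries, against 199, 194 and 200.4 FPKM in WT libraries. KO-labelled replicate 3 was the lowest and KO-labelled replicate 1 the highest of all 6 libraries, and the log2 difference was -0.062 ± 0.082 with a 95% interval from -0.26 to 0.13 (limma adjusted p = 0.537). Ctsa encodes the carboxypeptidase that also protects β-galactosidase and neuraminidase from degradation. Its level was 146 ± 9.56 FPKM in KO-labelled and 155 ± 2.73 FPKM in WT libraries, with an interval of the log2 difference from -0.22 to 0.037 (limma adjusted p = 0.184). Part of the exon length of some of these genes is shared with a gene on the opposite strand, 26.8% of Ctsl with Gm47123, 12.8% of Ctsb with Fdft1 and 10.5% of Ctsa with Pltp, and 34.4% of that of Ctsd with Gm49369 on its own strand. Gm47123 and Gm49369 were listed at 0 FPKM, and reads in the shared parts cannot be assumed to have been separated by strand.

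Of 7 other cathepsin genes outside the list 3 reached the level for testing, and all 3 were higher, against 30.6% of all tested genes. Ctsf had 28.0 ± 3.85 FPKM in KO-labelled and 15.6 ± 1.201 FPKM in WT libraries and Ctso had 3.77 ± 0.0460 FPKM in KO-labelled and 0.936 ± 0.111 FPKM in WT libraries (limma adjusted p = 0.00056 for Ctsf and 1.33e-05 for Ctso). Ctsk, which osteoclasts use to digest bone collagen, was 1.16-fold higher at 80.5 ± 1.89 FPKM in KO-labelled and 69.5 ± 4.79 FPKM in WT libraries (limma adjusted p = 0.0162). The protein inhibitors of cathepsins went both ways. Cst7, the gene of cystatin F, an inhibitor found in the endolysosomes of immune cells, had 1.31, 1.80 and 2.49 FPKM in KO-labelled libraries, against 10.9, 10.2 and 15.4 FPKM in WT libraries, 6.51-fold lower (limma adjusted p = 6.73e-05). Cst3, the gene of the secreted cystatin C, was 1.74-fold lower at 267 ± 4.00 FPKM in KO-labelled and 463 ± 15.5 FPKM in WT libraries, while Serpinb6a was 2.60-fold higher at 47.9 ± 2.42 FPKM in KO-labelled and 18.4 ± 0.789 FPKM in WT libraries. Of the 4 tested inhibitors on a list of 10, 2 were higher (1 without WT replicate 2) and 2 lower.

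Among the other hydrolases and soluble proteins of the lumen, 8 of 13 genes were higher, 3 lower and 2 did not pass. That was 61.5% higher and 23.1% lower, against 30.6% and 30.2% of all tested genes. Of the 13 genes, Psap had the largest difference in FPKM. It encodes prosaposin, the precursor of the saposins that hand glycolipids to their hydrolases. Psap (chr10:60277627-60302597 in mm10) had 433, 422 and 445 FPKM in KO-labelled libraries, against 223, 226 and 218 FPKM in WT libraries, a ratio of 1.95 with no overlap (log2 difference 0.96 ± 0.038, limma adjusted p = 1.41e-06). Man2b1, the lysosomal α-mannosidase gene, had 24.8, 25.2 and 25.6 FPKM in KO-labelled libraries, against 10.5, 12.1 and 11.3 FPKM in WT libraries. It was 2.22-fold higher, the largest log2 difference of the group at 1.09 ± 0.058 (limma adjusted p = 5.71e-06). Grn, the gene of progranulin, which travels to the lysosome with prosaposin, had 183, 186 and 183 FPKM in KO-labelled libraries, against 134, 138 and 134 FPKM in WT libraries, 1.36-fold higher (limma adjusted p = 4.61e-05).

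Several of the remaining genes that were higher encode enzymes of sphingolipid and glycan breakdown. Asah1, the acid ceramidase gene, was 1.68-fold higher at 48.8 ± 3.56 FPKM in KO-labelled and 29.1 ± 0.219 FPKM in WT libraries (SD, n = 3 each). Glb1, the β-galactosidase gene, was 1.52-fold higher, and Gla, the α-galactosidase gene, 1.33-fold higher. Hexa, a subunit of β-hexosaminidase, was 1.17-fold higher. Npc2, the soluble cholesterol carrier of the lysosome, was 1.154-fold higher, the smallest ratio among the 25 genes that were higher. The limma adjusted p was 4.93e-05 for Asah1, 0.000324 for Glb1, 0.00214 for Gla, 0.00977 for Hexa and 0.00867 for Npc2. Gusb, the β-glucuronidase gene often used as a reference gene, was at 88.3 ± 1.53 FPKM in KO-labelled and 86.4 ± 1.27 FPKM in WT libraries and Neu1, the sialidase gene, at 19.3 ± 0.625 FPKM in KO-labelled and 20.8 ± 1.58 FPKM in WT libraries, and neither passed (limma adjusted p = 0.481 for Gusb and 0.237 for Neu1).

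The 3 genes that were lower act on different substrates. Lipa encodes lysosomal acid lipase, which frees cholesterol and fatty acids from the lipoproteins and lipid droplets delivered to the lysosome. Lipa had 88.5, 89.5 and 97.2 FPKM in KO-labelled libraries, against 158, 159 and 160.5 FPKM in WT libraries, 1.73-fold lower with no overlap (log2 difference -0.79 ± 0.046, limma adjusted p = 9.01e-06). Smpd1 encodes acid sphingomyelinase, which makes ceramide. Smpd1 had 3.42, 2.66 and 3.79 FPKM in KO-labelled libraries, against 6.83, 6.82 and 5.94 FPKM in WT libraries, 1.98-fold lower (log2 difference -0.82 ± 0.11, limma adjusted p = 0.000686). Gaa, the acid α-glucosidase gene, whose enzyme digests glycogen, was 1.61-fold lower at 14.0 ± 0.733 FPKM in KO-labelled and 22.6 ± 0.618 FPKM in WT libraries (limma adjusted p = 5.05e-05).

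Of the 7 membrane protein genes, 4 were higher, 2 lower and 1 did not pass. That was 57.1% higher and 28.6% lower, against 30.6% and 30.2% of all tested genes. Lamp1 and Lamp2 encode the glycoproteins that coat the inner face of the lysosomal membrane. Lamp1 (chr8:13159161-13175338 in mm10) had 386, 397 and 401 FPKM in KO-labelled libraries, against 288, 284 and 283 FPKM in WT libraries, a ratio of 1.39 (log2 difference 0.47 ± 0.035, limma adjusted p = 3.05e-05). Lamp2, which is also needed for chaperone-mediated autophagy, had 53.4, 55.6 and 61.4 FPKM in KO-labelled libraries, against 24.97, 26.4 and 25.5 FPKM in WT libraries, a ratio of 2.21 (log2 difference 1.11 ± 0.061, limma adjusted p = 6.18e-06). Neither gene showed overlap between the groups. Npc1, the membrane protein that moves cholesterol out of the lysosome, had 9.93, 10.4 and 9.89 FPKM in KO-labelled libraries, against 6.14, 6.12 and 5.96 FPKM in WT libraries, 1.66-fold higher (limma adjusted p = 4.29e-05). Scarb2, the receptor that brings glucocerebrosidase to the lysosome, was 1.24-fold higher at 13.3 ± 0.578 FPKM in KO-labelled and 10.7 ± 0.872 FPKM in WT libraries (limma adjusted p = 0.0101).

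Cd63 moved the other way. It encodes a tetraspanin of late endosomes and of exosomes, and had 26.7, 30.2 and 26.9 FPKM in KO-labelled libraries, against 56.6, 56.7 and 57.7 FPKM in WT libraries, 2.04-fold lower (log2 difference -1.004 ± 0.056, limma adjusted p = 6.92e-06). A copy of it elsewhere, Cd63-ps, took 7.45% to 10.2% of the fragments of the pair in KO-labelled and 5.91% to 6.88% in WT libraries. With the copy added, Cd63 was still lower, at 113 ± 7.46 CPM (fragments scaled to library depth) in KO-labelled and 224 ± 2.68 CPM in WT libraries (SD, n = 3 each). Laptm5, a membrane protein of blood cells that lowers surface receptor levels, had 102, 102 and 117 FPKM in KO-labelled libraries, against 132, 133 and 129 FPKM in WT libraries, 1.23-fold lower (limma adjusted p = 0.00423), but it did not pass under quantile normalization. Mcoln1, the gene of the calcium channel TRPML1 that activates TFEB through calcineurin, was at 4.87 ± 0.0514 FPKM in KO-labelled and 5.05 ± 0.378 FPKM in WT libraries and did not pass (limma adjusted p = 0.625).

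**Figure D2:**
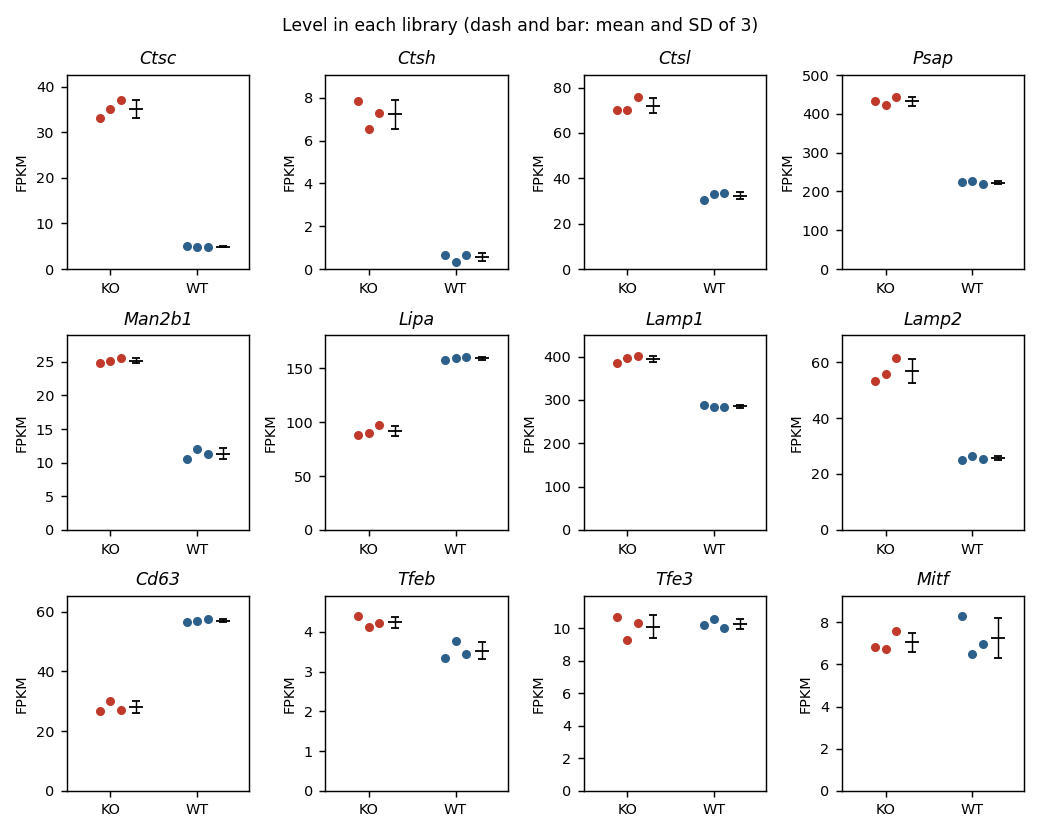
FPKM of 12 lysosomal genes in each of the 3 KO-labelled (red) and 3 WT (blue) libraries, each panel on its own linear axis from 0; the dash and bar give the mean and SD. Ctsc, Ctsh, Ctsl, Psap, Man2b1, Lamp1, Lamp2 and Tfeb were higher in all KO-labelled libraries, Lipa and Cd63 lower, and Tfe3 and Mitf overlapped.

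The proton pump had no common direction. Of 16 subunit and accessory genes, 5 were higher (31.2%), 6 lower (37.5%) and 5 did not pass. Among all tested genes 30.6% were higher and 30.2% lower. The summed level of the 16 genes was 894 ± 9.19 FPKM in KO-labelled and 878 ± 10.1 FPKM in WT libraries (SD, n = 3 each). Without Atp6v0c, whose direction turns when its copy is added, 4 of 15 were higher and 6 lower, and the sum was lower in KO-labelled libraries, at 859.99 ± 14.8 FPKM, against 875 ± 9.54 FPKM in WT libraries. The number lower fell to 3 when KO-labelled replicate 2 or WT replicate 3 was left out. Scaling mattered here: after rescaling to TPM 6 were higher and 3 lower, and under quantile normalization 8 were higher and 4 lower. Within the catalytic V1 sector, Atp6v1b2, the gene of the B subunit that forms the ATP-splitting head with subunit A, had 128, 130.2 and 130.1 FPKM in KO-labelled libraries, against 61.9, 62.6 and 60.2 FPKM in WT libraries. The values did not overlap and the ratio was 2.10 (log2 difference 1.06 ± 0.037, limma adjusted p = 7.43e-07). Its partner gene Atp6v1a stayed within the spread, at 94.8 ± 4.75 FPKM in KO-labelled and 93.0 ± 0.822 FPKM in WT libraries, with an interval of the log2 difference from -0.083 to 0.14 (limma adjusted p = 0.644). Atp6v1f, the gene of a small subunit of the central stalk, went against Atp6v1b2. It had 44.5, 42.2 and 42.7 FPKM in KO-labelled libraries, against 92.4, 88.4 and 103 FPKM in WT libraries, 2.19-fold lower (log2 difference -1.11 ± 0.062, limma adjusted p = 7.04e-06).

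The rest of the V1 genes differed by less than 1.5-fold, in both directions. Atp6v1e1, a peripheral stalk gene, was 1.37-fold higher at 26.3 ± 0.733 FPKM in KO-labelled and 19.1 ± 1.01 FPKM in WT libraries, and Atp6v1h, a regulatory subunit gene, 1.25-fold higher at 15.2 ± 1.43 FPKM in KO-labelled and 12.1 ± 1.03 FPKM in WT libraries. The other peripheral stalk gene Atp6v1g1 had 97.0, 92.4 and 101 FPKM in KO-labelled libraries, against 108, 105 and 119 FPKM in WT libraries, with a log2 difference of -0.19 ± 0.061 that passed narrowly (limma adjusted p = 0.0299). Atp6v1d, of the central stalk, was at 10.2 ± 0.782 FPKM in KO-labelled and 11.9 ± 0.459 FPKM in WT libraries and also passed narrowly (limma adjusted p = 0.0367). Atp6v1h lost its call without WT replicate 2 (limma adjusted p = 0.0591). Atp6v1g1 and Atp6v1d lost theirs in several of the other settings, as did Atp6v0e of the membrane sector, at 41.4 ± 4.60 FPKM in KO-labelled and 50.1 ± 0.934 FPKM in WT libraries (limma adjusted p = 0.02). Atp6v1c1, whose subunit C links the sectors, was at 37.2 ± 2.17 FPKM in KO-labelled and 36.8 ± 0.850 FPKM in WT libraries and did not pass (limma adjusted p = 0.826).

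In the membrane sector the d and c″ subunit genes did not pass, with Atp6v0d1 at 90.3 ± 8.36 FPKM in KO-labelled and 81.3 ± 4.85 FPKM in WT libraries and Atp6v0b at 111, 98.6 and 85.9 FPKM in KO-labelled libraries, against 95.9, 103 and 101 FPKM in WT libraries. KO-labelled replicate 3 had the lowest value of Atp6v0b and replicate 1 the highest of all 6 libraries. The accessory genes parted, Atp6ap1 at 62.1 ± 3.00 FPKM in KO-labelled and 59.9 ± 1.596 FPKM in WT libraries without passing (limma adjusted p = 0.396) and Atp6ap2, also known as the prorenin receptor gene, at 50.4, 55.5 and 48.9 FPKM in KO-labelled libraries, against 75.1, 72.3 and 72.7 FPKM in WT libraries, 1.42-fold lower (limma adjusted p = 0.00023).

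The a subunit, which steers the pump to a given membrane, differed between the groups in the RNA of its forms. Atp6v0a1 had 27.6, 27.5 and 28.3 FPKM in KO-labelled libraries, against 10.1, 10.3 and 9.97 FPKM in WT libraries, 2.74-fold higher (log2 difference 1.37 ± 0.043, limma adjusted p = 4.54e-07). Tcirg1, which encodes the a3 form that osteoclasts send to their ruffled border, had 35.6, 34.3 and 35.1 FPKM in KO-labelled libraries, against 61.9, 61.7 and 59.0 FPKM in WT libraries, 1.74-fold lower (log2 difference -0.78 ± 0.041, limma adjusted p = 5.46e-06). Atp6v0a2 was at 10.9 ± 0.548 FPKM in KO-labelled and 11.98 ± 0.218 FPKM in WT libraries and did not pass (limma adjusted p = 0.0915). As FPKM is per length, the RNA of the forms can be set against each other. That length covers all annotated exons of a gene, so the shares depend on the annotation. Tcirg1 made up 47.5% ± 0.233 of the a subunit level in KO-labelled and 73.4% ± 0.360 in WT libraries (SD, n = 3 each). Atp6v0a1 made up 37.7% ± 0.698 in KO-labelled and 12.2% ± 0.124 in WT libraries. The summed level of the a subunit genes was 73.7 ± 1.098 FPKM in KO-labelled and 83.0 ± 1.86 FPKM in WT libraries. These shares combine genes whose differences were tested above and were not tested again.

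Other forms of the d and e subunits were seen mainly in WT cells. Atp6v0d2, the d form that osteoclasts induce, had 0.181, 0.486 and 0.712 FPKM in KO-labelled libraries, against 8.79, 10.3 and 9.08 FPKM in WT libraries. That was 0.492% ± 0.251 of the d subunit level in KO-labelled and 10.4% ± 0.416 in WT libraries (SD, n = 3 each). Atp6v0e2 had 0.0159, 0 and 0 FPKM in KO-labelled libraries, against 12.3, 13.4 and 13.7 FPKM in WT libraries. That was 0.0142% ± 0.0246 of the e subunit level in KO-labelled and 20.8% ± 0.685 in WT libraries. Both were lower by limma (adjusted p = 4.34e-06 for Atp6v0d2 and 5.18e-08 for Atp6v0e2). Of the 9 pump isoforms outside the list 3 reached the level for testing, and Atp6v0a4, Atp6v1b1, Atp6v1c2, Atp6v1e2 and Atp6v1g3 were listed at 0 in all 6 libraries. Of 5 osteoclast markers tested on a list of 9, which shares Atp6v0d2, 4 were lower, as Tcirg1 was, and 1, Ctsk, higher. Of all tested genes 30.2% were lower. The summed level of the list was 82.7 to 86.4 FPKM in KO-labelled and 138 to 147 FPKM in WT libraries. Most of that difference was Acp5, at 2.79 ± 0.260 FPKM in KO-labelled and 50.8 ± 0.745 FPKM in WT libraries. Ctsk, the most abundant, was at 80.5 ± 1.89 FPKM in KO-labelled and 69.5 ± 4.79 FPKM in WT libraries. The 4 that were lower were Acp5, Atp6v0d2, Dcstamp and Mmp9. Dcstamp, needed for osteoclast fusion, had 0.270, 0 and 0 FPKM in KO-labelled libraries, against 6.62, 6.01 and 7.62 FPKM in WT libraries. Mmp9, a matrix protease gene, had 0.546, 0.301 and 0.724 FPKM in KO-labelled libraries, against 4.76, 4.88 and 4.16 FPKM in WT libraries. The other 4 markers stayed below 1 FPKM in every library, with Ocstamp at up to 0.909 FPKM, Oscar at up to 0.340 FPKM, Itgb3 at up to 0.0706 FPKM and Calcr at up to 0.023 FPKM. The part of these markers in the shift of isoforms was not tested.

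**Figure D3:**
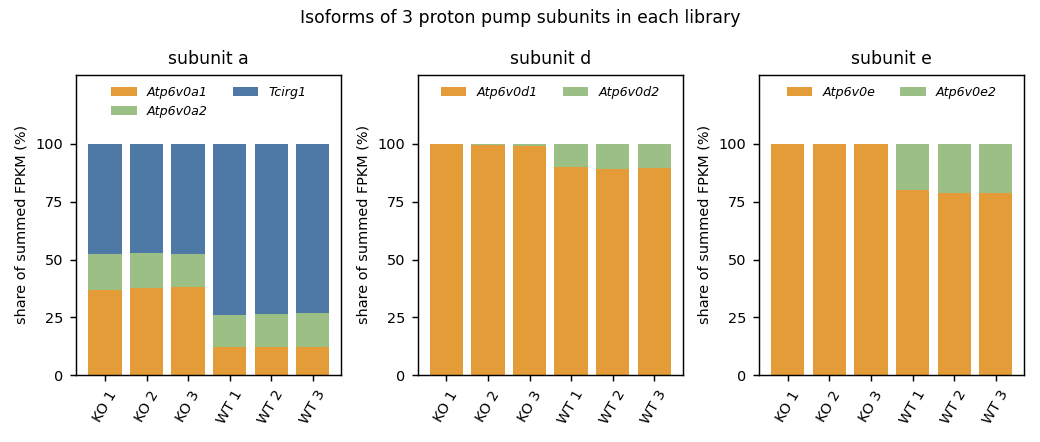
Share of each isoform in the summed FPKM of its proton pump subunit, in percent, for the a, d and e subunits in each library, KO-labelled libraries on the left of each panel and WT on the right. In the a subunit Tcirg1 makes up less than 48% in KO-labelled and over 73% in WT libraries, and Atp6v0d2 and Atp6v0e2 appear almost only in WT libraries.

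Atp6v0c, the gene of the c subunit that forms the proton-carrying ring, had the largest difference of the 48 genes on the log2(FPKM + 1) scale, though Ctsh had a larger ratio, and its direction is not settled by these files. Atp6v0c (chr17:24163866-24169702 in mm10, minus strand) had 37.6, 37.3 and 27.7 FPKM in KO-labelled libraries, against 2.10, 2.74 and 3.34 FPKM in WT libraries, a ratio of 12.5 (log2 difference 3.24 ± 0.16, limma adjusted p = 3.69e-06). On chromosome 6 the annotation holds a processed pseudogene, Atp6v0c-ps2 (chr6:37806086-37806550, plus strand), whose 465 bases match the coding part of Atp6v0c with 99.8% identity. Its level went the other way, at 3.67, 4.04 and 2.70 FPKM in KO-labelled libraries, against 453, 472 and 451 FPKM in WT libraries. The only difference between the aligned sequences is T111C, counted from the A of the start codon, with the base of Atp6v0c first. The stretch around it is shown because a fragment that lies within the aligned stretch and misses this base matches both loci equally well, from base 81 to base 141 in GENCODE M21 transcripts, with the differing base in capitals.
Atp6v0c: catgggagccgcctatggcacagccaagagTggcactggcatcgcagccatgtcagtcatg
Atp6v0c-ps2: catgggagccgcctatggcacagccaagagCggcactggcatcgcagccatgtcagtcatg

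In fragments, Atp6v0c had 3362, 2485 and 1793 in KO-labelled libraries, against 152, 192 and 252 in WT libraries, and Atp6v0c-ps2 had 45, 37 and 24 in KO-labelled libraries, against 4504, 4554 and 4667 in WT libraries. The gene thus took 98.5% to 98.7% of the fragments of the pair in KO-labelled and 3.26% to 5.12% in WT libraries. Summed over both loci, the level was 129, 128 and 94.95 CPM in KO-labelled libraries, against 218, 229 and 221 CPM in WT libraries. On that sum all KO-labelled libraries were below all WT libraries, by 1.90-fold in the means, and voom on the summed fragments gave a log2 difference of -0.90 ± 0.09 (SE, adjusted p = 6.58e-07), the reverse of the value for Atp6v0c alone. The sum also holds any transcript made from the Atp6v0c-ps2 locus, so it cannot be read as the level of Atp6v0c alone. The alignment covers 465 of the 1183 bases of the Atp6v0c transcript. Fragments from the other bases lie outside the match, and totals per gene do not show where on the transcript fragments lay. How the counting divided fragments that fit both loci is not given in the sources used here. Counted without Atp6v0c and Cd63, the 2 listed genes with an expressed copy, 24 of 46 lysosomal genes were higher and 10 lower.

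**Figure D4:**
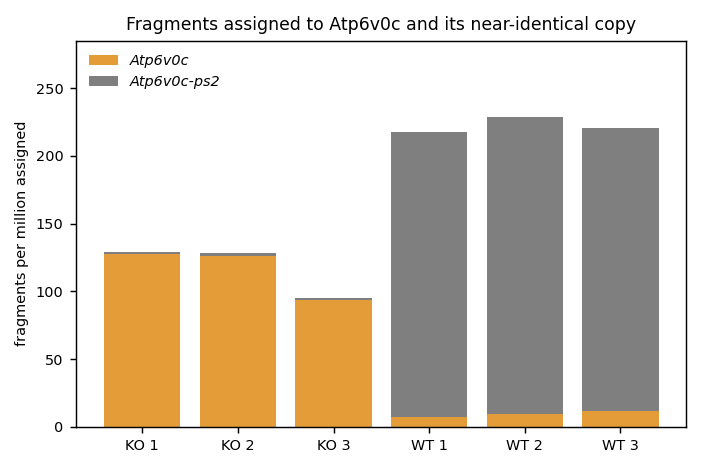
Assigned fragments (CPM, scaled to library depth) for Atp6v0c (orange) and its near-identical copy Atp6v0c-ps2 (grey), stacked, in each KO-labelled and WT library. The KO-labelled bars, 94.95 to 129 in height, are almost all Atp6v0c, and the WT bars, 218 to 229, almost all Atp6v0c-ps2.

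The transcription factors that govern lysosomal genes were close in both groups. Tfeb (chr17:47737030-47792419 in mm10) had 4.40, 4.11 and 4.22 FPKM in KO-labelled libraries, against 3.35, 3.78 and 3.45 FPKM in WT libraries. The KO-labelled libraries lay above the WT libraries by a ratio of 1.203 (log2 difference 0.21 ± 0.068, limma adjusted p = 0.0311). The call was lost without a filter on low values (limma adjusted p = 0.0629), under quantile normalization and without any 1 of 5 libraries, all but WT replicate 2, with adjusted p from 0.0539 to 0.0929 over these settings. Tfe3 had 10.7, 9.29 and 10.3 FPKM in KO-labelled libraries, against 10.2, 10.6 and 10.0 FPKM in WT libraries, with overlap and an interval of the log2 difference from -0.17 to 0.13 (limma adjusted p = 0.767). Mitf had 6.84, 6.71 and 7.57 FPKM in KO-labelled libraries, against 8.30, 6.47 and 6.95 FPKM in WT libraries, with overlap and an interval from -0.25 to 0.19 (limma adjusted p = 0.798). By level Tfe3 was the most abundant of the 3, and Tfeb the least in every library. These factors are regulated largely by where they sit in the cell, which RNA levels do not measure.

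Genes of nutrient sensing and signalling upstream of TFEB, a list that holds parts and activators of mTORC1, its inhibitors and calcineurin, differed in both directions. Of 29 tested, 8 were higher, 12 lower and 9 did not pass, the median log2 difference being -0.071. That was 27.6% higher and 41.4% lower, against 30.6% and 30.2% of all tested genes. Lamtor3, a subunit of the Ragulator complex that anchors mTORC1 at the lysosome, had 17.9, 19.3 and 18.8 FPKM in KO-labelled libraries, against 9.18, 7.49 and 7.63 FPKM in WT libraries, 2.31-fold higher (limma adjusted p = 2.55e-05). Its copy Gm5900 was at 1.31, 0.948 and 0.975 FPKM in KO-labelled and 5.49, 10.7 and 9.70 FPKM in WT libraries. The copy aligns over 375 bases, against 4151 exon bases of Lamtor3, so at equal FPKM it holds fewer fragments. Fragments of Lamtor3 and its copy were not summed, and the value of Lamtor3 is uncertain to that extent. Castor1, the gene of an arginine sensor, was 2.59-fold lower at 1.57 ± 0.224 FPKM in KO-labelled and 4.06 ± 0.601 FPKM in WT libraries (limma adjusted p = 0.000307).

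The promoters of the lysosomal genes were searched for the CLEAR element, because that is the sequence TFEB, TFE3 and MITF are known to bind. RefSeq promoters on GRCm38.p6 were at hand for 40 of the 48 genes, each covering 250 bases before and 50 bases after a transcription start. The palindrome TCACGTGA was found in 7 of the 40 genes (17.5%), in 12 of 114 tested genes from other lysosome, autophagy and sensing lists (10.5%) and in 195 of 7960 tested genes with a promoter (2.45%). Its core CACGTG, which the palindrome contains, was found in 13 of the 40 genes (32.5%), 28 of the 114 (24.6%) and 992 of the 7960 (12.5%). The 8-base forms GTCACGTG or CACGTGAC, which also contain the core and are each other on the opposite strand, were found in 9 of the 40 (22.5%), 19 of the 114 (16.7%) and 421 of the 7960 (5.29%). The palindrome lengthened by G at its start and C at its end occurred in 0 of the 40, in 5 of the 114 (4.39%) and in 74 of the 7960 (0.93%). The others read the same on both strands, and a match is a description of the sequence, not a binding site. Ctsa and Gla held 2 matches each, so that the 7 genes held 9. All 9 are shown 5′ to 3′ on the strand of the gene, from 20 bases before the first to 20 bases after the last match of a gene, with each palindrome in capitals.
Ctsa (chr2:164833740-164833804, plus strand): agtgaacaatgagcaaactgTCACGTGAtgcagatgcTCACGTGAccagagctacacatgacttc
Ctsd (chr7:142387899-142387946, minus strand): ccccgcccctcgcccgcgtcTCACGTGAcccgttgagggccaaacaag
Gla (chrX:134601173-134601253, minus strand): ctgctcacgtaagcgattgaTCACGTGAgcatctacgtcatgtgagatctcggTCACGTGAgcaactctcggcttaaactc
Mcoln1 (chr8:3500453-3500500, plus strand): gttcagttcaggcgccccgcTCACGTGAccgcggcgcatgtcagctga
Atp6v0d1 (chr8:105566041-105566088, minus strand): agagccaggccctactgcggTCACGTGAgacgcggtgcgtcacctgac
Atp6v0e (chr17:26676378-26676425, plus strand): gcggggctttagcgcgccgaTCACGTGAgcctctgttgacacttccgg
Atp6v1a (chr16:44139364-44139411, minus strand): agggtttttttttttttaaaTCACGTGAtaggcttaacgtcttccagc

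These 7 genes were not the ones that differed most. Of them 5 did not pass in the comparison of KO-labelled with WT libraries, Gla was 1.33-fold higher and Atp6v0e 1.21-fold lower. By call, the palindrome was present in 1 of 19 genes higher in KO-labelled cells, in 1 of 10 lower and in 5 of 11 that did not pass. The core CACGTG was present in 5 of 19 higher, 2 of 10 lower and 6 of 11 that did not pass. GTCACGTG or CACGTGAC was present in 4 of 19 higher, 0 of 10 lower and 5 of 11 that did not pass. Among all tested genes with a promoter, the palindrome was in 2.9% of those higher and 1.97% of those lower. For the core these shares were 12.4% and 11.2%, and for GTCACGTG or CACGTGAC 5.59% and 4.9%. No difference by call was tested. Of the 10 lysosomal genes that passed with at least a 2-fold difference on the log2(FPKM + 1) scale, 8 had a promoter in the table. Of these 8, 1 held the core, Ctsl, and 0 held the palindrome. Lamp1 held 4 copies of the core, the most of any promoter in the set, and its promoter (chr8:13158911-13159210, plus strand, GRCm38.p6) is shown whole with the copies in capitals.
Lamp1: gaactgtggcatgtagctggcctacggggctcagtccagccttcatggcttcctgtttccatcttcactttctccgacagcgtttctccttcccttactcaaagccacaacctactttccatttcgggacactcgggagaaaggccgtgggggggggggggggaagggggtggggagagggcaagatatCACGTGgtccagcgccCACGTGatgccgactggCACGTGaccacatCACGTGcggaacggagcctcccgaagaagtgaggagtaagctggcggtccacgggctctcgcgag

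**Figure D5:**
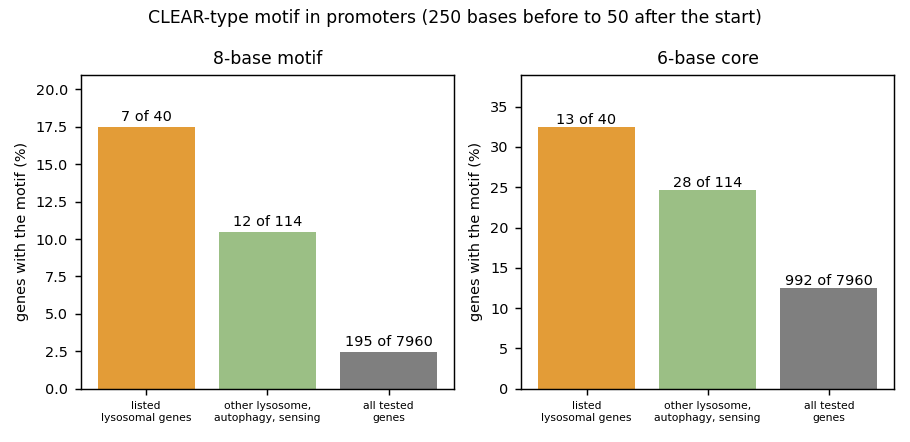
Percent of genes whose promoter holds the 8-base CLEAR-type palindrome (left) or its 6-base core (right), for the listed lysosomal genes, for tested genes of other lysosome, autophagy and sensing lists, and for all tested genes with a promoter. The palindrome was in 7 of 40, 12 of 114 and 195 of 7960 genes.

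Hydrolases outside the list were split in direction. Of 37 other tested hydrolases and cofactors, 12 were higher (32.4%), 13 lower (35.1%) and 12 did not pass. Their median log2 difference was -0.06. Among all tested genes 30.6% were higher and 30.2% lower. At the extremes, Smpdl3a, a phosphodiesterase related to acid sphingomyelinase, was 8.29-fold higher, with 29.8, 31.8 and 29.1 FPKM in KO-labelled libraries, against 3.74, 3.64 and 3.57 FPKM in WT libraries (limma adjusted p = 5.23e-08). Acp5, the tartrate-resistant acid phosphatase of osteoclasts and macrophages, was 18.2-fold lower, with 3.04, 2.80 and 2.52 FPKM in KO-labelled libraries, against 51.5, 50.8 and 50.02 FPKM in WT libraries (limma adjusted p = 2.6e-08). Of 24 other membrane proteins 11 were higher (45.8%) and 6 lower (25%, with 3 lower without WT replicate 1). The largest differences were those of the peptide and histidine transporter gene Slc15a3, 5.58-fold higher at 23.5 ± 0.839 FPKM in KO-labelled and 4.20 ± 0.310 FPKM in WT libraries, and the sialic acid exporter gene Slc17a5, 3.15-fold higher at 20.7 ± 1.33 FPKM in KO-labelled and 6.57 ± 0.968 FPKM in WT libraries (limma adjusted p = 2.7e-07 for Slc15a3 and 1.54e-05 for Slc17a5).

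Genes for delivery to the lysosome were evenly spread, 7 of 23 being higher, 5 lower and 11 not passing, with a median log2 difference of 0.000197. The mannose 6-phosphate receptor gene M6pr was at 86.6 ± 4.79 FPKM in KO-labelled and 91.4 ± 1.34 FPKM in WT libraries (limma adjusted p = 0.21). Ap1s1, of the adaptor that packs hydrolases into vesicles at the Golgi, was 1.80-fold lower at 60.1 ± 6.19 FPKM in KO-labelled and 108 ± 2.57 FPKM in WT libraries, and Arl8a, a GTPase that moves lysosomes along microtubules, was 1.65-fold higher at 34.8 ± 2.97 FPKM in KO-labelled and 21.2 ± 0.622 FPKM in WT libraries (limma adjusted p = 6.8e-05 for Ap1s1 and 0.000125 for Arl8a). Autophagy genes were more often higher than lower, 12 of 27 tested, with 3 lower and 12 not passing, and a median log2 difference of 0.15. By share 44.4% were higher and 11.1% lower, for delivery genes 30.4% and 21.7%, and for all tested genes 30.6% and 30.2%. Those passing in either direction were 55.6% of the autophagy genes and 60.8% of all tested genes. Optn, the gene of a receptor that brings cargo to the autophagosome, had 2.00, 1.64 and 2.66 FPKM in KO-labelled libraries and none in any WT library, at least 56.3-fold higher against a floor of 3 fragments per WT library (limma adjusted p = 7.81e-05). Map1lc3b, whose protein coats autophagosomes, was 2.23-fold higher at 16.0 ± 1.33 FPKM in KO-labelled and 7.18 ± 0.470 FPKM in WT libraries (limma adjusted p = 2.51e-05). Its copy Gm6055 was at 13.3 to 17.7 FPKM over the 6 libraries, but aligns over 378 bases, against 7517 exon bases of Map1lc3b. Fragments of Map1lc3b and its copy were not summed, and the value of Map1lc3b is uncertain to that extent.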

How the data were processed

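Polyadenylated RNA of 6 libraries was sequenced, and the deposited tables hold FPKM per gene, computed by the authors. Per the submitters' processing notes, the build was mm10, the aligner HISAT2 (2.0.5) and the counter featureCounts (1.5.0-p3). For annotation release, strand setting and reads with several matches, the sources used here give nothing. Whole fragments were recovered from FPKM and exon length (about 98% of low values came out whole within 0.1, against 20% by chance). The 10843 genes whose mean reached 1 FPKM were tested on log2(FPKM + 1) with limma 3.58.1 in R 4.3.3, over all genes at once, with Benjamini-Hochberg adjustment and a threshold of 0.05. The fit was also run on simulated fragments with known changes in a small part of the genes. In these data most tested genes passed, so that run does not measure the error rate of the calls given here. Near-identical copies were found with BLAST+ 2.17.0+. The lysosomal genes and all other lists were chosen with earlier results of these data known. Values per library were given for the 4 lysosomal genes with the largest log2 difference and the 2 with the highest level in each group of function and for the 3 transcription factors; the 2 genes with the largest difference were named from each other list. Ctsd, Tcirg1 and Atp6ap2 were also given by library, and the marker genes, Ctsk, Cst3 and M6pr were named, after their values were seen. Other scalings, filters, pseudocounts, voom on recovered fragments, a replicate block and leaving out each library were tried.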

Additional observations from a re-analysis of the deposited data

How the results depend on the processing

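Of the 48 lysosomal genes, 31 kept direction and call in each of 14 alternatives in which they were tested (Ctsh, Mcoln1, Smpd1 and Tfeb, below 5 FPKM, were not tested at that filter), and 6 that passed lost the call under at least 1: Laptm5, Atp6v0e, Atp6v1d, Atp6v1g1, Atp6v1h and Tfeb. The cause was not tested. Rescaling to TPM moved the median of all tested genes to 0.096 (log2), with 3969 genes higher and 2642 lower.

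Genes that did not pass turned in sign, as log2 differences. After rescaling to TPM, Ctsa was at 0.0017, Ctsd at 0.032, Mcoln1 at 0.043, Atp6v0b at 0.066, Tfe3 at 0.067 and Mitf at 0.058. Under quantile normalization, Ctsa was at 0.09, Ctsd at 0.14 and Atp6v0b at 0.094. With voom on recovered fragments, Atp6v0b was at 0.01 and Tfe3 at 0.0086. Among genes that passed, Atp6v0c turned to -0.90 when its copy was added with voom, an alternative chosen after seeing the data.

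Leaving out 1 library at a time, the log2 difference ranged from -0.12 to 0.034 for Ctsd, -0.12 to 0.067 for Atp6v0b, -0.013 to 0.054 for Atp6v1a, -0.016 to 0.062 for Atp6v1c1, -0.061 to 0.029 for Tfe3 and -0.098 to 0.06 for Mitf. The number of pump genes lower was 3 to 6, of transcription factors higher 0 to 1, of other lysosomal membrane proteins lower 3 to 5 (the lowest without WT replicate 1) and of cathepsin inhibitors higher 1 to 2 (the lowest without WT replicate 2). The lowest pump count came without KO-labelled replicate 2 and without WT replicate 3.

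Under quantile normalization 1 membrane protein gene was lower and 8 pump genes were higher, and after rescaling to TPM 3 pump genes were lower. With a mean of at least 5 FPKM, 1 other pump isoform was lower. The number of transcription factors higher was 0 in limma without a filter, under quantile normalization, with the replicate block and without each library other than WT replicate 2, and also with a mean of at least 5 FPKM, where Tfeb was not tested; it was 1 (Tfeb) with voom. The labels do not say that replicate numbers mark a shared culture or day, so the numbers were not taken as pairs. Deviations from the group mean had correlations of -0.034, 0.047 and -0.032 between same-numbered libraries, a weak check with 3 libraries a group. With the replicate block 24 lysosomal genes were higher and 10 lower, and 3119 and 3075 of all tested genes. Tfeb, Ctsh and Smpd1 had the lowest mean FPKM of the lysosomal genes, where depth limits precision most.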
